A study of Homo sapiens with 44 samples.

Results

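Bulk ATAC-seq, which reads open chromatin as the sites where a transposase can cut, was compared between Ccd18-Co cells kept with IFNG and unstimulated cells. Ccd18-Co is an established line of human colon fibroblasts, so all libraries come from 1 line and no group stands for several donors. The 2 groups of 4 libraries were taken by the condition in their labels, 8 of the 44 libraries and 2 of the 11 groups of the series, and all 407383 deposited peaks were used, of which 407176 passed the filter on low coverage. The cells of every group had attached, had been starved without serum and were then held for a day in serum-free medium, with IFNG at 10 ng/ml or with no cytokine (0 ng/ml). IFNA and TNF, each at 10 ng/ml in 4 libraries, served for direct comparisons. Nothing in the labels says that the replicates were separate cultures, so p-values measure the spread between these libraries, which may be technical.

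IFNG, interferon gamma, is the type II interferon that activated T cells and natural killer cells release. Its receptor, made of IFNGR1 and IFNGR2, acts through the kinases JAK1 and JAK2 on factors that bind GAS elements, and it induces IRF1, which binds ISRE elements together with other interferon regulatory factors. Type I interferons such as IFNA act through another receptor and mostly through a complex with STAT2 and IRF9 at ISREs. In non-immune cells IFNG is known for inducing CIITA, the master regulator of MHC class II genes, and the guanylate-binding proteins, a family of GTPases that attack intracellular pathogens.

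The following sequences are the stretches around an ISRE or GAS string in peaks named after genes of the pathway. They are shown because the raised peaks were set apart by how often they held an ISRE. ISRE stands here for GAAA, any 2 bases, GAAA, and GAS for TTC, any 3 bases, GAA. Both were searched on both strands, so that an ISRE on the other strand reads TTTC, any 2 bases, TTTC. All sequences were read 5′ to 3′ from the forward strand of hg38. Capitals mark matches to either string. Stretches that touch an annotated UTR were kept to 30 bases.
IRF1 start site (chr5:132490853-132490933): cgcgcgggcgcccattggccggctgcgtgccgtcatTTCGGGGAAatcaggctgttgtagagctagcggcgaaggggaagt
JAK2, upstream (chr9:4936491-4936571): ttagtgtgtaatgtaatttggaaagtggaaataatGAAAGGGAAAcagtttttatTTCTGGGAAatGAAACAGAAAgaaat
SOCS1, in an intron of RMI2 (chr16:11259334-11259414): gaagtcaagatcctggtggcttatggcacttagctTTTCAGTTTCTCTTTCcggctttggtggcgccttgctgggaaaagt
PTPN2 intron (chr18:12904125-12904205): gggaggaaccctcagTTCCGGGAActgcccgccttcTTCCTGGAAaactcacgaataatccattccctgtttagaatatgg

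The next set comes from peaks that rose most, within and outside promoters. Those of CIITA and TNFSF10 were chosen after their values were seen, as the most raised peak under each name, and the others are among the 12 most raised of all peaks.
CIITA intron (chr16:10878873-10878953): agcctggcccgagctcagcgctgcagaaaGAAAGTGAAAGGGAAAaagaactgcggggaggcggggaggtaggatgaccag
GBP5, before the start (chr1:89274436-89274516): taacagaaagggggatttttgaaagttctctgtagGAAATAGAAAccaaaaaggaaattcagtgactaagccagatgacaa
LAP3 intron (chr4:17580388-17580468): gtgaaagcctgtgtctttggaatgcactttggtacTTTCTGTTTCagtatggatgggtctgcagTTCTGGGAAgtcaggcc
LGALS17A, intergenic (chr19:39678166-39678246): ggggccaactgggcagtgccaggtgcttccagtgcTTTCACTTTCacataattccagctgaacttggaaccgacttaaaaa
IFNL2, intergenic (chr19:39277678-39277758): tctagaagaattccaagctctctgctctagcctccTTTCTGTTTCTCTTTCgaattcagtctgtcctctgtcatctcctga
SLC22A15 intron (chr1:116006767-116006847): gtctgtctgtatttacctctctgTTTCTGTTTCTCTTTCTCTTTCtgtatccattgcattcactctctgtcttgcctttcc
TNFSF10-named, in an intron of LINC02068 (chr3:172586555-172586635): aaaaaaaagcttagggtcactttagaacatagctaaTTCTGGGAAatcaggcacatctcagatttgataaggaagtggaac

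These start sites belong to effector genes, with an activator of RNA decay, the peptide transporter, a T cell chemoattractant, the ligand of PD-1, a DNA sensor and a trypanolytic apolipoprotein in this order.
OAS2 start site (chr12:112978511-112978540): tagacttcagTTTCAGTTTCctggctctgg
TAP1 start site (chr6:32853813-32853842): ccatttagggGAAAGCGAAATCGAAAgcgg
CXCL10 start site (chr4:76023674-76023754): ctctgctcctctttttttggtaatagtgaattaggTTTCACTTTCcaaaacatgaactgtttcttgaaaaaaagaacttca
CD274 start site (chr9:5450305-5450385): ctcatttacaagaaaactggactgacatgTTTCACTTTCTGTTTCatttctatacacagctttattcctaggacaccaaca
AIM2 start site (chr1:159076912-159076992): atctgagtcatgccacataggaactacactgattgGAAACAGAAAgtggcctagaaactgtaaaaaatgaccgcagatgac
APOL1 start site (chr22:36253070-36253099): tgacTTTCACTTTCCCTTTCgaattcctcg

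A stretch in NLRC5 comes from the peak that fell most and is shown for contrast with the raised peaks. Its capitals mark a GAS.
CPNE2-named, in an intron of NLRC5 (chr16:57045782-57045862): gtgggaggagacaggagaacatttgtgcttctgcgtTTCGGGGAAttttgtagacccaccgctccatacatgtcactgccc

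IFNG opened far more chromatin than it closed. Accessibility rose at 6025 peaks, 1.48% of those tested, and fell at 1119, 0.275% (limma on log2 of coverage per Mb + 0.5, Benjamini-Hochberg adjusted p under 0.05). Of all 7144 called peaks, 84.3% had risen. The raised peaks changed by a median of 1.33 on the log2 scale and the lowered ones by -0.90, against -0.01 over all tested peaks. A rise of at least 1 was seen at 4325 raised peaks, of at least 2 at 782 and of at least 3 at 75, while 430 lowered peaks had a change of -1 or below and 0 peaks reached -2. At 5599 raised and 930 lowered peaks the 4 IFNG libraries did not overlap the 4 unstimulated ones. Without regard to the test, all 4 IFNG libraries lay above all 4 unstimulated ones at 3.92% of tested peaks and below them at 2.55%.

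**Figure D1:**
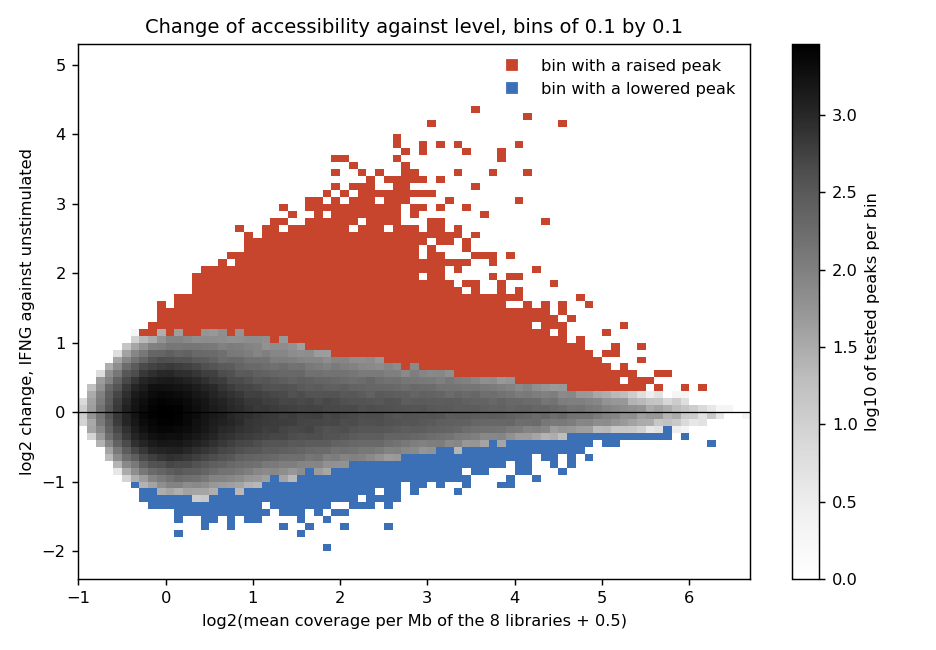
Each cell is a bin of 0.1 by 0.1, with the log2 of the mean coverage per Mb of the 8 libraries + 0.5 on the x axis and the log2 change with IFNG on the y axis. Grey gives the number of tested peaks on a log10 scale, red a bin with at least 1 raised peak and blue a bin with at least 1 lowered peak. The red region reaches above 4, and the blue one stays above -2.

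Most raised peaks were above the floor before stimulation, and their median was above that of all tested peaks. Their median coverage went from 1.97 per Mb in unstimulated cells to 6.35 with IFNG, while the median of all tested peaks in unstimulated cells was 0.831. Only 334 raised peaks (5.54%) were at or under the coverage of 3 reads in every unstimulated library, a state shared by 8.95% of all tested peaks. Those peaks had a median of 1.75 per Mb with IFNG and a highest value of 15. Of the raised peaks, 48.6% had an unstimulated mean of 2.08 per Mb or more, the upper quartile of all tested peaks. Lowered peaks were stronger to begin with, since 90.3% lay at or above that quartile, and their median went from 7.05 to 3.5 per Mb. A fall can be seen only in a peak with coverage to lose, and a peak near the coverage of 3 reads, 0.426 to 0.683 per Mb in unstimulated libraries, has none.

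Most raised peaks lay outside promoters, although promoters had the highest share raised of the 4 peak classes. Peaks that the deposited table classes as promoter were called raised in 1.71% of cases, exonic peaks in 1.55%, intronic ones in 1.49% and distal ones in 1.4%. Thus 3134 of the raised peaks were intronic, 1968 distal, 498 in promoters and 425 exonic. Among called peaks the median log2 change was 0.89 for raised promoter peaks against 1.22 for exonic, 1.37 for intronic and 1.36 for distal ones. A peak with a wider SE needs a larger change to be called, which bears on these medians. The IRF1 start-site peak was called at 0.58 ± 0.11, and a peak named after IFI35 was not at 1.30 ± 0.39. Whether the classes differ in size beyond this was not tested. Within 1000 bases of an annotated start 1.68% of tested peaks rose, and beyond 100000 bases 1.02%. Of the start-site peaks of all annotated genes 2.3% rose, against 1.48% of all tested peaks.

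A distal peak led the changes. The peak that the table names after FAR2, intergenic and 126616 bases from the nearest annotated start (chr12:28698965-28699465), had a coverage of 0.719, 0.377, 0.355 and 0.846 per Mb in the unstimulated libraries and of 18.2, 20.3, 22.8 and 23.8 with IFNG. It was nearly closed in every unstimulated library and open in every IFNG library. Its level was 37.1-fold higher, a log2 change of 4.36 ± 0.37 (SE, adjusted p = 3.65e-22), and it held neither string. With IFNA it stood at 1.60 ± 0.342 (SD, n = 4) and with TNF at 1.69.

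An intergenic peak 1239 bases from the start of LGALS17A, a galectin pseudogene, followed. It had 0.877, 1.43, 1.68 and 0.850 per Mb without and 32.2, 27.9, 36.8 and 31.6 per Mb with IFNG. No libraries of the groups overlapped. It rose by 4.28 ± 0.33 on the log2 scale (adjusted p = 7.58e-26), and its sequence above holds an ISRE, with a GAS elsewhere in the peak.

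Next to FAM71A a distal peak (chromosome 1, from 212635147) lay at or under 3 reads in each unstimulated library (0.225 to 0.564 per Mb) and at 13.4 to 16.1 with IFNG, at least 27-fold higher, and it held 2 ISRE matches. The intron of LAP3, a leucine aminopeptidase that trims peptides, went from 0, 0.435, 0 and 0.702 per Mb to 8.16, 10.9, 12.4 and 12.5 (log2 change 3.96 ± 0.40, adjusted p = 2.39e-16). A distal peak near IFNL2, an interferon lambda gene, was at 0.716, 0.374, 0 and 1.12 before and at 15.7, 15.3, 9.79 and 12.9 after (3.83 ± 0.37, adjusted p = 1.14e-17). In the intron of SLC22A15, a solute carrier, the unstimulated libraries held 0.240 to 0.458 per Mb, at most 3 reads each, and the IFNG libraries 9.66 to 12.2, at least 20.2-fold more. This peak carried 5 overlapping or neighbouring ISRE matches, 3 of them in the stretch shown. The list of 12 closed with a peak named after SCAMP1 that lies in an intron of LHFPL2, with a log2 change of 3.75 ± 0.38.

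IRF1 was the locus with the most raised peaks. IRF1 is the transcription factor that carries much of the later IFNG response. By deposited name 33 of its 76 tested peaks rose (43.4%, beside 1.48% of all tested peaks), over 46.2 kb and with a median log2 change of 2.29, and 1 fell. The strongest, in an intron annotated to IRF1 and IRF1-AS1 and 9104 bases from the nearest start (chr5:132480908-132481408), had 1.02, 1.97, 2.36 and 2.54 per Mb in unstimulated libraries and 41.8, 41.2, 45.1 and 41.5 with IFNG. The IFNG libraries thus held nearly the same value, far from the unstimulated ones. It was 21.5-fold higher (log2 change 4.16 ± 0.29, adjusted p = 1.38e-30), against 5.28 ± 1.30 per Mb with IFNA and 2.00 with TNF. Neighbours from 132477381 and 132479355 rose by 3.85 and 3.76.

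Along the gene the change was 0.58 at the start-site peak and 0.06 at the next peak, 478 bases past the main start, which was not called. From 1195 to 15809 bases past the start every tested peak rose, by 1.64 to 4.16 and most at 9615 bases, and beyond that 1 more did. Upstream of the start-site peak, raised peaks reached position -19474, counted in bases from the start, with smaller changes, between 0.64 and 1.53. The start-site peak of IRF1 was open already, with 32.2, 28.8, 27.9 and 24.9 per Mb, and reached 38.7, 44.9, 49.3 and 38.3 (log2 change 0.58 ± 0.11, adjusted p = 8.34e-05). The call was lost with no mean-variance trend in the fit (over the alternatives, adjusted p ran from 6.5e-07 to 0.144). The groups did not overlap there either, but the step was smaller than in the distal peaks. Of the 33 raised peaks 6 held an ISRE or a GAS, among them the GAS at the start site shown above.

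**Figure D2:**
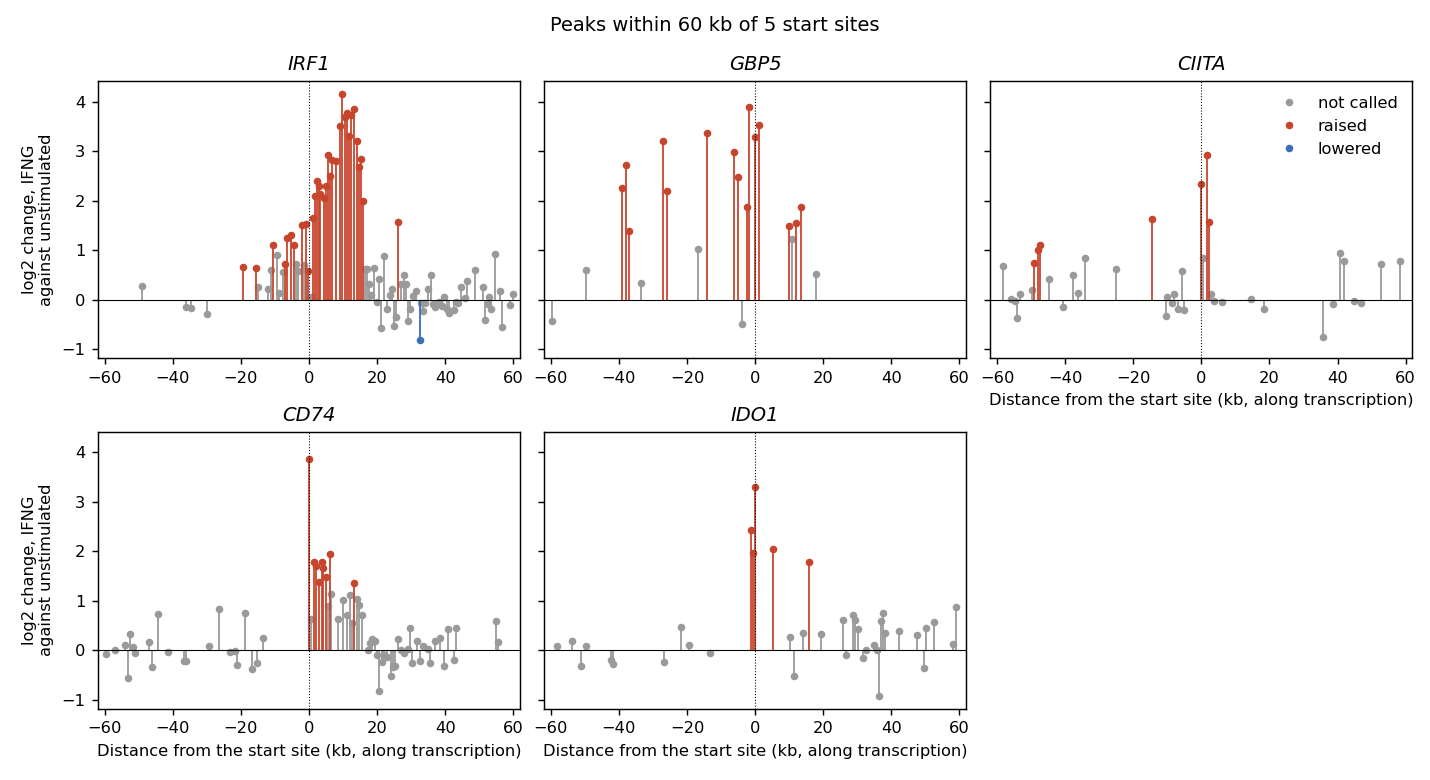
The log2 change with IFNG of every tested peak within 60 kb of the start site of IRF1, GBP5, CIITA, CD74 and IDO1, against its distance from the start in kb, counted along the direction of transcription. Red stems were raised, blue ones lowered and grey ones not called. Of the peaks within these windows 33 of 98 rose at IRF1, 15 of 22 at GBP5, 7 of 40 at CIITA, 9 of 73 at CD74 and 5 of 39 at IDO1.

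Raised peaks clustered at a few other loci. After IRF1, names with many raised peaks were GBP5 with 15 of 20, WDR25 with 13 of 16, HLA-E with 12 of 49 and GBP1 with 10 of 13. CD74, RND3 and SLC25A47 had 9 each, of 37, 119 and 26 tested, and SGIP1 had 8 of 116. Peaks named after WDR25 and SLC25A47 lie close together on chromosome 14. The raised WDR25-named peaks end with the start-site peak of WARS1, the tryptophanyl-tRNA synthetase that IFNG is known to induce. That peak appears again below under WARS1. The 13 raised peaks named after WDR25 spanned 16.1 kb, with a median of 1.97, and 3 of them held an ISRE or GAS. RND3, an atypical small GTPase, had its 9 raised peaks spread over 384 kb with a median of 1.13, which made them 7.56% of its peaks. In all, 4270 names had at least 1 raised peak, 3141 had exactly 1, and 49 had 5 or more.

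By windows of 1 Mb, the stretch of chromosome 1 with the GBP genes held 38 raised peaks of 222 (17.1%), that with IRF1 on chromosome 5 held 39 of 324 (12.0%), and that with WDR25 28 of 294 (9.52%). The MHC class II window on chromosome 6 followed with 23 of 266 (8.65%) and the IFIT window on chromosome 10 with 19 of 213 (8.92%). Only 37 of 2857 windows had 10 or more raised peaks, the median was 1 and 991 had 0.

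For each listed gene, the tested peak with its centre nearest to the start of its canonical transcript, within 1 kb, was read as its start-site peak. The canonical transcript is that marked Ensembl canonical in GENCODE v44. Other annotated starts of a gene were not searched for these counts. Over all annotated genes 26100 such peaks were tested, of which 600 rose (2.30%) and 72 fell (0.276%), with a median log2 change of 0.02. The lists below are read against these shares.

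The signalling pathway opened at some of its members, and the receptor genes were not among them. Of 12 start-site peaks of the receptor and JAK-STAT list 6 rose and 0 fell, with a median of 0.31. IRF9, a subunit of the type I interferon complex, had 13.3, 13.8, 16.3 and 14.1 per Mb in unstimulated and 23.6, 21.5, 26.5 and 21.6 in IFNG libraries, 1.62-fold more (log2 change 0.68 ± 0.14, adjusted p = 0.000738). The groups lay apart with little spread in either. IRF8, a factor best known from myeloid cells, rose by 1.19 (adjusted p = 0.0163), JAK1 by 0.62 and IRF2 by 0.53, the last of which opposes IRF1 at ISREs. The call of JAK1 was lost without IFNG replicate 2 or 4 or unstimulated replicate 3, that of IRF2 without IFNG replicate 1 or unstimulated replicate 1 or 2, and that of IRF8 without replicate 4 of either group. IFNGR1 stood at 12.5, 16.6, 18.8 and 18.2 per Mb without and 13.4, 14.9, 16.1 and 13.4 with IFNG, and IFNGR2 had a change of 0.09 ± 0.29 with adjusted p = 0.969. The start of JAK2 was likewise not called (-0.10 ± 0.17), and neither were STAT2 (0.06), STAT3 (0.05) and IRF7 (0.08).

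Away from the start site, a peak named after JAK2 did rise. It was picked after the values were seen, as the most raised peak under that name. This distal peak upstream of JAK2 (chr9:4936251-4936751) is tied to the gene by its deposited name and lies 9401 bases from the nearest annotated start of any gene. It was at 0, 0.379, 0 and 0.237 per Mb unstimulated, no more than 3 reads in any library. With IFNG it was at 2.00, 5.55, 2.87 and 1.59, at least 5.42-fold higher (2.34 ± 0.37, adjusted p = 3.73e-07). Its stretch above holds 2 ISREs with a GAS between them.

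Among the feedback inhibitors 2 of 11 start-site peaks rose, 0 fell and the median was 0.18. SOCS1, which blocks JAK kinases, went from 13.8, 15.2, 14.3 and 10.2 per Mb to 21.9, 22.7, 22.8 and 24.5 (log2 change 0.77 ± 0.14, adjusted p = 3.31e-05), a call lost with no mean-variance trend. BATF2, an AP-1 family factor induced by IFNG, went from 13.1, 10.8, 11.0 and 6.35 to 24.9, 24.0, 25.6 and 22.5 (1.24 ± 0.17, adjusted p = 1.12e-08). In both, each IFNG library was above each unstimulated one. SOCS2, SOCS3, CISH, USP18, PIAS1 and the phosphatases PTPN1, PTPN2, PTPN6 and PTPN11 were not called, with changes of -0.33 to 0.44. An intronic peak of PTPN2, chosen after its values were seen, did rise, from 1.22, 2.74, 1.71 and 2.30 to 9.08, 10.8, 9.70 and 10.6 per Mb (2.12 ± 0.31, adjusted p = 4.81e-08), and holds the pair of GAS shown above. With IFNA that peak stood at 1.56 per Mb, and it was higher with IFNG by 2.37 on the log2 scale (adjusted p = 2.96e-09).

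**Figure D3:**
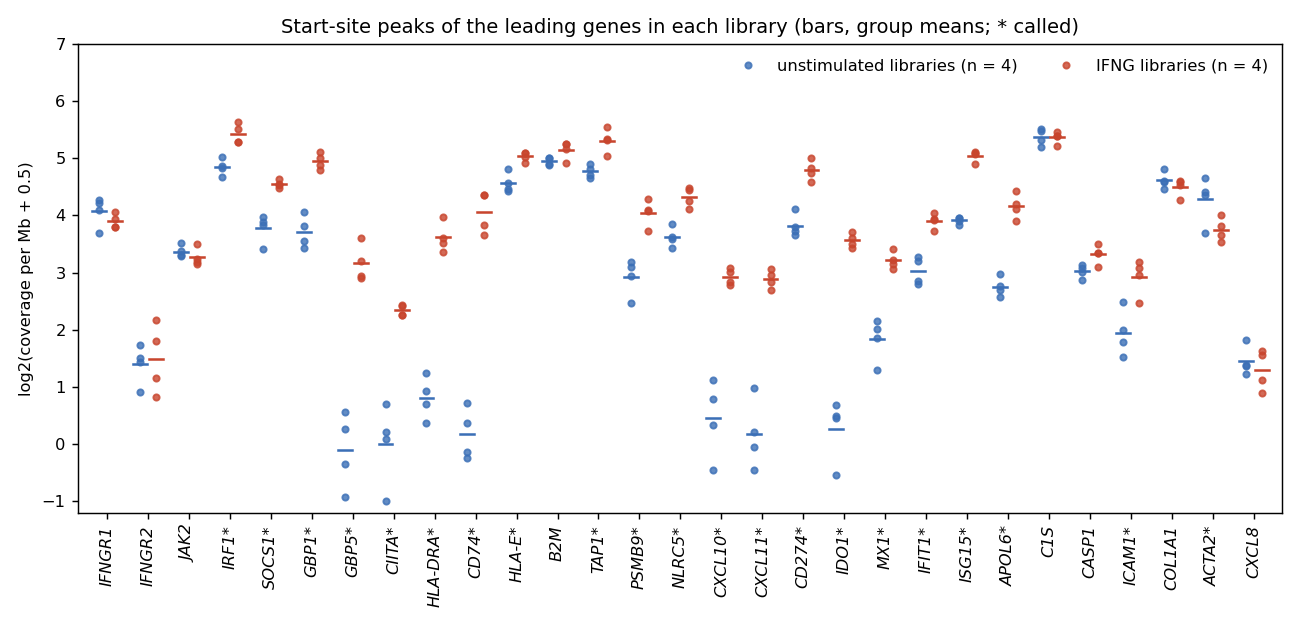
The start-site peak of leading genes in each library, as log2 of coverage per Mb + 0.5, with unstimulated libraries in blue, IFNG libraries in red and group means as bars. An asterisk marks a called change. CD74, GBP5, HLA-DRA, CIITA, CXCL10, CXCL11 and IDO1 lie below 1 on average without and above 2 with IFNG, whereas IFNGR1, JAK2, C1S and COL1A1 overlap.

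The guanylate-binding protein list had 5 raised start-site peaks of 7 and a median of 1.18. GBP5, which promotes inflammasome assembly and was nearly closed before, went from 0.0264, 0.708, 0.978 and 0.282 to 8.74, 7.22, 11.7 and 7.03 per Mb (3.28 ± 0.39, adjusted p = 6.73e-12). A stronger peak 1706 bases before its start, still in the promoter class (chr1:89274316-89274816), went from 2.48, 1.47, 0.686 and 2.36 to 28.9, 32.6, 27.4 and 33.8 (3.88 ± 0.31, adjusted p = 9.00e-25). In both the groups lay far apart. GBP1, an antimicrobial coat protein, began open and rose 2.38-fold, from 16.1, 10.3, 13.6 and 11.2 to 29.0, 34.0, 31.5 and 27.3 (1.23 ± 0.15, adjusted p = 9.81e-12). GBP4 rose by 1.83, GBP2 by 1.18 and GBP3 by 0.83. The call of GBP4 was lost with a pseudocount of 0.1 (adjusted p from 2.88e-07 to 0.0532 over the alternatives). The call of GBP3 was lost without replicate 2 or 3 of either group or IFNG replicate 4. GBP6 and IRGM had a change of 0.00, and GBP7 had no peak in reach. A distal peak named after GBP6, chosen after its values were seen and 111 bases from the start of the pseudogene GBP1P1, rose by 3.03 ± 0.31 to between 13.6 and 19.1 per Mb.

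MHC class II genes, which present peptides to CD4 T cells and are silent in most fibroblasts, rose at most of their start sites. Of 14 start-site peaks 10 rose and 0 fell, and the median was 1.49. CD74, the invariant chain that chaperones class II molecules, had 0.406, 0.349, 1.14 and 0.797 per Mb unstimulated and 20.1, 12.1, 13.8 and 19.9 with IFNG, 24.5-fold higher (3.87 ± 0.38, adjusted p = 3.02e-17). That made it the largest change of any start-site peak in these lists. HLA-DRA, the alpha chain of HLA-DR, went from 0.788, 1.13, 1.88 and 1.41 to 11.7, 15.2, 9.78 and 11.0 (2.80 ± 0.34, adjusted p = 2.60e-11). HLA-DOA rose by 2.60, HLA-DRB1 by 2.55, HLA-DPB1 by 1.67, HLA-DRB5 by 1.51, HLA-DMB by 1.47, HLA-DMA by 1.36 and HLA-DQA1 by 1.35. The HLA-DRB genes are near-identical copies with many alleles, so that their reads may have been shared, and the calls of HLA-DRB5 and HLA-DQA1 were lost on leaving out any 1 of IFNG replicates 2, 3 and 4 or unstimulated replicates 1 and 2, that of HLA-DQA1 also without unstimulated replicate 4. Not called were HLA-DQB1 (-0.41), HLA-DPA1 (-0.09), HLA-DOB (0.91) and RFX5 (0.32). Another promoter peak of HLA-DQB1, 76 bases from an annotated start (chr6:32668209-32668709) and chosen after its values were seen, rose from 0, 1.2, 0 and 1.07 to 1.99, 2.78, 2.58 and 3.15 per Mb (1.78 ± 0.38, adjusted p = 0.000786).

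CIITA, the coactivator that switches on this block, rose at 2 of its start regions. The second was chosen after its values were seen, as the most raised peak under that name. At its main start the unstimulated libraries held 0.661, 0, 1.13 and 0.558 per Mb and the IFNG libraries 4.89, 4.83, 4.26 and 4.28 (2.34 ± 0.39, adjusted p = 2.45e-06). The stronger peak, 1708 bases on (chr16:10878668-10879168), holds the starts of the transcripts CIITA-212 and CIITA-220 and went from 2.02, 0.228, 2.88 and 1.15 to 10.4, 16.2, 12.7 and 13.5, 8.39-fold higher (2.92 ± 0.30, adjusted p = 1.99e-15). All IFNG libraries were above the highest unstimulated one at both. The stronger peak stood at 3.61 per Mb with IFNA and 2.59 with TNF, against a mean of 1.57 unstimulated. Whether IFNA or TNF changed it from unstimulated cells was not tested. It was higher with IFNG than with IFNA by 1.79 on the log2 scale (adjusted p = 1.13e-05). It holds the 2 overlapping ISREs shown above.

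MHC class I and its peptide supply rose less, and from a higher level. Of 18 start-site peaks 8 rose, 0 fell and the median was 0.46. PSMB8, an immunoproteasome subunit, went from 7.50, 8.44, 7.61 and 9.17 to 25.5, 26.3, 21.1 and 20.6 per Mb (1.45 ± 0.19, adjusted p = 5.90e-10). PSMB9, another subunit, rose by 1.12 ± 0.21, HLA-F by 1.11, HLA-B by 1.04, PSMB10 by 0.73, NLRC5 by 0.70, TAP1 by 0.54 and HLA-E by 0.47. The PSMB10 call was lost without IFNG replicate 4 or unstimulated replicate 3 or 4, and that of HLA-E without unstimulated replicate 2 or 4, and with no mean-variance trend neither these 2 nor NLRC5 and TAP1 were called. NLRC5 is the coactivator of class I genes, as CIITA is of class II. TAP1 and PSMB9 share a divergent promoter, so that their peaks are neighbours. B2M, the light chain of class I molecules, was open in all libraries and had a change of 0.20 (adjusted p = 0.557). HLA-C (0.24), TAP2 (0.09), PSME1 (0.27) and PSME2 (0.18) were not called either. By contrast, distal or intronic peaks of these genes, chosen after their values were seen, rose strongly, with 3.40 ± 0.37 at a peak 5604 bases from the start of HLA-E (0.0397 to 0.799 per Mb unstimulated, 8.51 to 10.9 with IFNG) and 2.38 ± 0.39 in the intron of B2M.

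**Figure D4:**
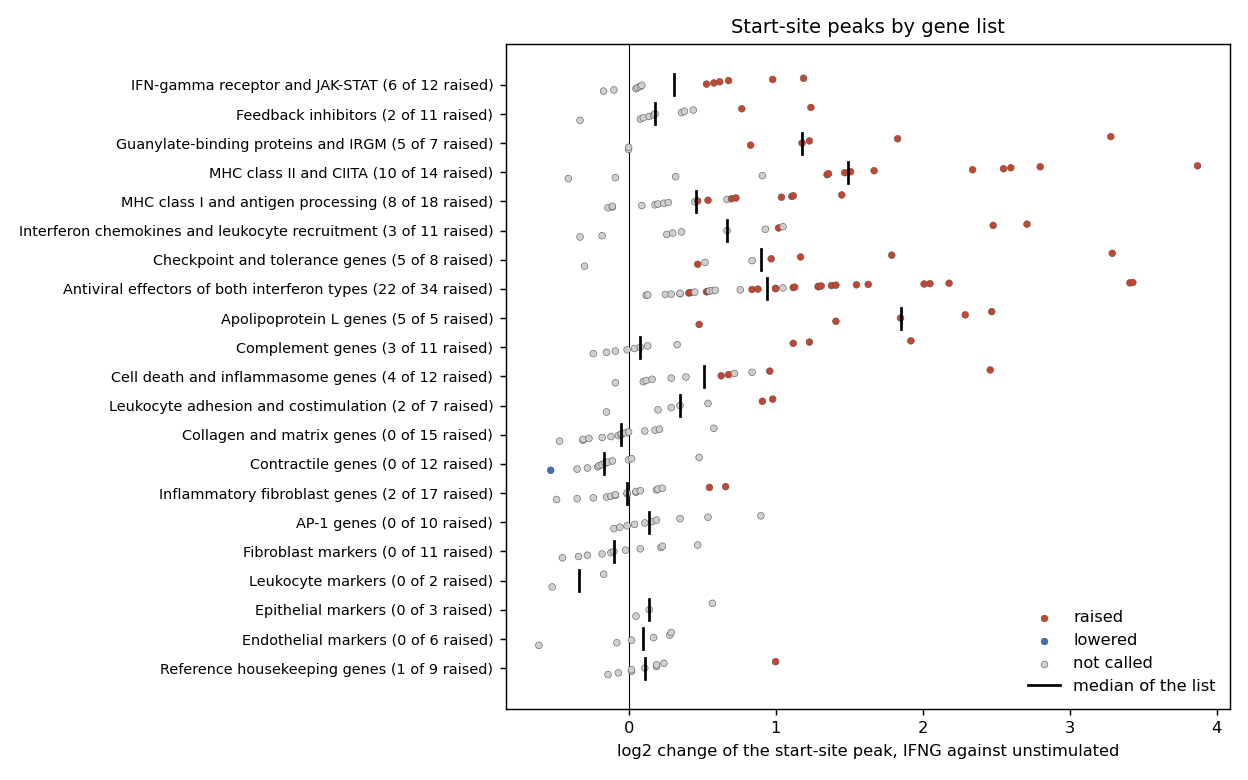
The log2 change of each start-site peak by gene list, red where raised, blue where lowered and grey where not called, with the median of each list as a black bar. The interferon, antigen presentation and apolipoprotein L lists lie mostly right of 0, and the collagen, contractile and fibroblast lists lie near it and more often left, with 4 of 15, 2 of 12 and 4 of 11 start-site peaks above 0.

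Among chemokines and genes that recruit leukocytes 3 of 11 start-site peaks rose. CXCL11 rose by 2.71 ± 0.37 (adjusted p = 3.73e-09) and CXCL10 by 2.48 ± 0.32 (adjusted p = 1.50e-10). Both are ligands of CXCR3, which draws T cells. CXCL10 had 1.23, 1.68, 0.228 and 0.764 per Mb before and 6.68, 7.53, 6.41 and 7.97 after, with no overlap, and reached 10.8 with IFNA and 9.45 with TNF. IL15, a growth factor for natural killer and memory T cells, rose by 1.02 (adjusted p = 0.000126). CXCL9, the third CXCR3 ligand, had no peak within reach of its start. CCL8 (1.05), CX3CL1 (0.93), CCL2 (0.36) and CCL5 (0.26) were not called at their starts. By deposited name, peaks rose at CX3CL1 (2 of 23), CCL2 (3 of 30), CCL5 (1 of 14) and CCL8 (1 of 23). The share over all tested peaks was 1.48%. A distal peak named after CX3CL1, chosen after its values were seen, went from a mean of 1.01 to 9.13 per Mb (2.72 ± 0.35, adjusted p = 4.09e-10).

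Of the 8 start-site peaks of checkpoint and tolerance genes 5 rose. IDO1, which breaks down tryptophan, went from 0.865, 0.190, 0.911 and 1.10 to 12.6, 10.3, 10.8 and 11.7 per Mb, 14.8-fold more (3.29 ± 0.36, adjusted p = 1.36e-13). CD274, which encodes PD-L1, went from 13.4, 12.7, 16.9 and 12.1 to 23.6, 26.4, 28.0 and 31.6 (0.97 ± 0.15, adjusted p = 3.82e-07). IDO1 was thus a nearly closed start that opened, and CD274 an open one that gained. TNFSF10, the death ligand TRAIL, rose by 1.79, WARS1 by 1.17 and HLA-E, counted here too, by 0.47. PDCD1LG2, the other PD-1 ligand, had a change of 0.52 with adjusted p = 0.0834.

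Antiviral effectors shared with type I interferon rose broadly. Their 35 genes had 34 start-site peaks, since PARP9 and DTX3L share one, and of these 22 rose and 0 fell, with a median of 0.94. OAS2, which makes the activator of RNase L, went from 2.41, 2.52, 2.02 and 2.86 to 28.6, 30.2, 35.3 and 30.9 per Mb (3.43 ± 0.25, adjusted p = 4.10e-27). BST2, tetherin, went from 0.707, 0.926, 2.03 and 1.71 to 18.3, 19.0, 15.8 and 20.0 (3.41 ± 0.32, adjusted p = 1.17e-18). RSAD2, viperin, rose by 2.18 and IFI27 by 2.05. ISG15, a ubiquitin-like modifier, began at 13.8, 15.1, 14.5 and 15.1 and reached 33.5, 33.3, 29.4 and 34.0 (1.13 ± 0.14). MX1, a GTPase that blocks viral polymerases, rose by 1.38 ± 0.24 and IFIT1, which binds viral RNA, by 0.88 ± 0.18. Of those not called, IFI44 (1.05, adjusted p = 0.0651), IFITM2 (0.59, 0.0571) and IFIT2 (0.57, 0.0595) missed the threshold narrowly, while TRIM21 (0.12) and IFIT5 (0.13) were near 0.

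The 5 apolipoprotein L genes, an interferon-responsive cluster on chromosome 22, all rose, with a median of 1.85. APOL4 went from 1.39, 1.36, 1.21 and 2.12 to 9.93, 13.2, 12.5 and 7.44 per Mb (2.47 ± 0.32, adjusted p = 3.68e-10), and APOL3 rose by 2.29. APOL1 went from 7.38, 4.71, 2.64 and 4.11 to 17.5, 16.4, 17.2 and 18.3 (1.85 ± 0.23, adjusted p = 3.54e-11), and APOL6 rose by 1.41. APOL2, the most open before stimulation, rose by 0.48, a call lost with no mean-variance trend. At each of the 5 the groups did not overlap.

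Complement genes had 3 raised start-site peaks of 11 and a median of 0.08. SERPING1, the C1 inhibitor, rose by 1.92 ± 0.28 (adjusted p = 3.50e-08), CFB, a component of the alternative pathway, by 1.23, and C2 by 1.12, a call lost on leaving out any 1 IFNG replicate or without unstimulated replicate 3 or 4. C1S had a change of -0.01 and C1R of 0.08. In the cell death list 4 of 12 rose, led by AIM2, a sensor of cytosolic DNA, with 1.87, 0.377, 0.680 and 0 per Mb before and 6.10, 4.69, 4.58 and 6.04 after (2.46 ± 0.39, adjusted p = 7.03e-07). CASP4 (0.96), GSDMD (0.68) and MLKL (0.63), an inflammatory caspase and 2 pore formers, rose less. The call of MLKL was lost on leaving out any 1 IFNG replicate or without unstimulated replicate 1, 2 or 3, that of GSDMD without IFNG replicate 2 or 3 or unstimulated replicate 1, and that of CASP4 without unstimulated replicate 3 (adjusted p = 0.0757). CASP1 was not called (0.29). ICAM1, an adhesion molecule for leukocytes, rose by 0.98 (adjusted p = 0.0208), but its highest unstimulated library, 5.10 per Mb, passed its lowest IFNG library, 5.05, and the call was lost without IFNG replicate 1, 2 or 3 or unstimulated replicate 1 or 4. SECTM1 rose by 0.91, and VCAM1 (0.54), CD40 (0.29), CD80 (0.20) and CD86 (0.35) were not called.

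Start-site peaks of the fibroblast programme were read against the same shares over all annotated genes, at which lists this short hold few calls. Of the collagen and matrix list 0 of 15 were called (median -0.05, 4 above 0), where 2.3% of all start-site peaks rose and 0.276% fell, and COL1A1 had a change of -0.12 with adjusted p = 0.847. Other peaks of these genes did change, and those named here were chosen after their values were seen, as the most raised under each name. In an intron of TNC, the matrix glycoprotein tenascin C, a peak (chr9:115106522-115107022) went from 4.35, 2.35, 1.47 and 3.1 to 10.8, 13, 15.7 and 15 per Mb (2.15 ± 0.27, adjusted p = 4.08e-11), so the groups lay apart. An intronic peak of FBN1, the microfibril protein fibrillin 1, rose by 2.2, a peak named after MYL9 in an intron of DLGAP4 by 1.30 and a distal peak named after COL1A2 by 0.79. Of 29 peaks named after COL1A1, 0 rose and 3 fell. Of the AP-1 list 0 of 10 were called (median 0.14), the nearest being BATF3 with 0.90 and adjusted p = 0.0645. Of 12 contractile genes ACTA2, smooth muscle actin, fell, from 20.1, 20.8, 24.7 and 12.4 to 13.5, 11.1, 15.5 and 12.2 per Mb (-0.53 ± 0.14, adjusted p = 0.0203). Its unstimulated replicate 4 lay among the IFNG libraries, and the call was lost under 8 alternatives, including those without IFNG replicate 2 or 4 and without unstimulated replicate 1, 2 or 3, with adjusted p up to 0.393. The other contractile genes ranged from -0.35 to 0.48. In the list of inflammatory fibroblast genes 2 of 17 rose (11.8%, beside 2.3% of all start-site peaks). CEBPB, a transcription factor, rose by 0.66 (adjusted p = 0.000955; not called with no mean-variance trend), and IL6 by 0.55 (adjusted p = 0.0478), a call lost when any of the 8 libraries was left out. CXCL8 had a change of -0.15, CXCL1 of -0.01 and MMP3 of -0.12. HPRT1, 1 of 9 reference genes with a start-site peak, rose by 1.00 ± 0.22 (adjusted p = 0.0018), with 4.14, 3.83, 2.74 and 4.18 per Mb before and 6.37, 9.05, 9.50 and 6.86 after.

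The cells carried the open chromatin of fibroblasts in both groups. The summed coverage of 11 fibroblast marker start-site peaks was 150 to 163 per Mb in unstimulated and 151 to 170 in IFNG libraries. Of 8 leukocyte marker genes 2 had a start-site peak, CD14 and ITGAM, with sums of 4.55 to 6.44 and 2.83 to 5.76, and PTPRC, CD3E, MS4A1, SPI1 and NKG7 had none. Of 8 epithelial markers 3 had one, with sums of 2.16 to 3.76 and 2.97 to 4.93, and all 6 endothelial markers had one, with 6.18 to 8.88 and 6.39 to 8.92. In none of these lists was a peak called. Total coverage was 414 ± 81.6 Mb in unstimulated libraries (SD, n = 4; 329 to 524) and 489 ± 113 Mb in IFNG libraries (421 to 658), so the ranges overlapped. Pairwise correlations of log2 values between the 8 libraries, which share the same peaks, ran from 0.835 to 0.891, and no pair agreed in more than 2.57% of peaks.

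The ISRE string set the raised peaks apart. It was present in 2649 of 6025 raised peaks (44.0%), in 9.13% of tested and in 4.29% of lowered peaks. GAS was in 22.2% of raised, 17.2% of tested and 15.1% of lowered peaks. Seen from the string, 8.14% of the peaks that hold both were raised, 6.88% of those with an ISRE only, 1.19% of those with a GAS only and 0.855% of those with neither. Of the 3532 peaks with 2 or more ISREs 15.6% rose. Some 43.6% of raised peaks held neither string, the leading FAR2, IRF1 and CD74 peaks among them.

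**Figure D5:**
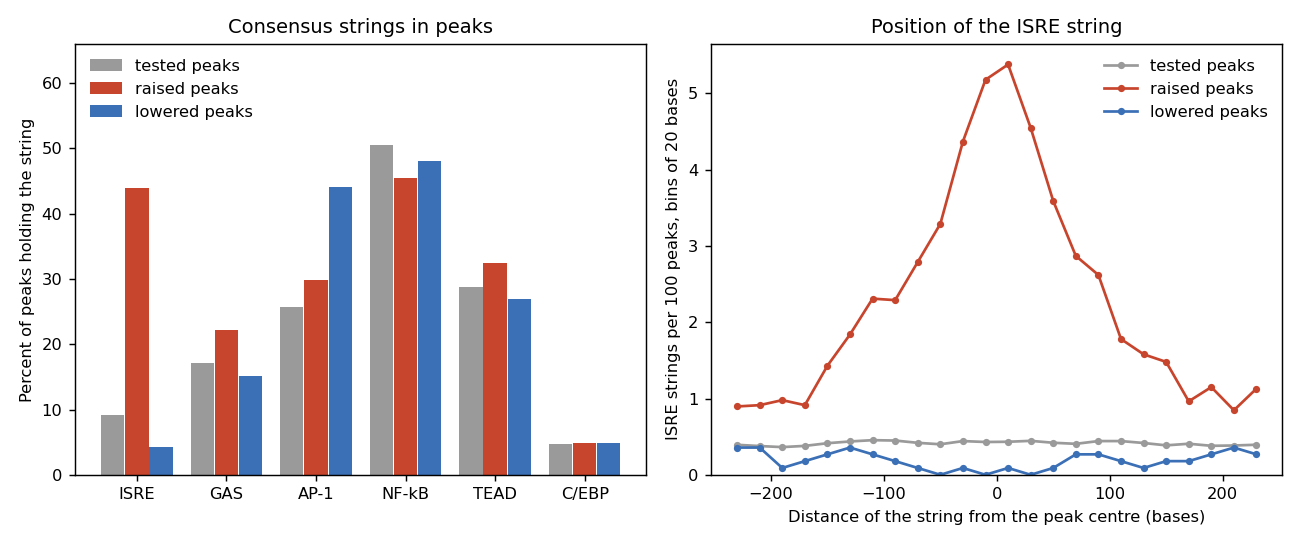
Left, the percent of tested, raised and lowered peaks that hold each of 6 strings. Right, ISRE matches per 100 peaks in bins of 20 bases against the distance from the peak centre. The ISRE bar of raised peaks reaches 44.0% against 9.13% for tested peaks, the AP-1 bar is highest for lowered peaks, and ISRE matches in raised peaks gather at the centre.

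The share grew with the size of the rise, up to a point. An ISRE was held by 26.9% of peaks raised by under 1 on the log2 scale, by 48.5% of those raised by 1 to 2, by 61.1% at 2 to 3 and by 54.7% of the 75 above 3. The share with a GAS went from 18.4% through 22.9% and 26.4% to 36.0% over the same steps. Matches also lay centrally, with 41.3% of the ISREs in raised peaks within 50 bases of the peak centre against 21.3% in all tested peaks. For GAS these figures were 24.0% and 21.0%. Intronic raised peaks held an ISRE in 47.1% of cases, distal ones in 43.7%, exonic ones in 40.2% and promoter ones in 28.5%, against 9.27%, 9.75%, 7.51% and 6.64% of the tested peaks of each class.

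Lowered peaks had another make-up. The AP-1 string (TGA, any base, TCA) was in 44.1% of them, in 25.7% of tested and in 29.9% of raised peaks. Lowered peaks were strong, so the shares were read again among peaks at or above the upper quartile of unstimulated coverage. There AP-1 was in 45.2% of lowered, 31.2% of tested and 36.1% of raised peaks, and the ISRE in 4.06%, 7.47% and 36.0%. The NF-kB string (GGG, any 5 bases, CC) was held by 45.5% of raised, 48.1% of lowered and 50.6% of tested peaks, the TEAD string (CATTCC) by 32.4%, 27.0% and 28.8%, and the C/EBP string (TTGC, any 2 bases, CAA) by 4.90%, 4.83% and 4.70%.

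Since called peaks are chosen by their change, the strings were also read over all peaks, called or not. Peaks with an ISRE took up 7.16%, 7.19%, 7.14% and 7.16% of the coverage of the unstimulated libraries and 8.82%, 8.89%, 8.84% and 8.80% of that of the IFNG libraries. The difference of 1.68 percentage points was many times the spread within either group. In a two-sided exact permutation test of 4 against 4 libraries its p was 0.0286, the smallest this design allows. After Benjamini-Hochberg adjustment over 6 strings it was 0.0571, so it did not pass the correction. With only ISRE, GAS and NF-kB at the smallest p, no difference, however large, could have passed. IFNA libraries had 7.60% ± 0.0847 and TNF libraries 7.22% ± 0.0436 (SD, n = 4). The share in peaks with a GAS went from 15.0% to 15.4%, a difference of 0.377 with the same exact p of 0.0286 (adjusted 0.0571), and that with an NF-kB string differed by -0.285 (adjusted exact p = 0.0571). For AP-1 (-0.191, exact p = 0.143), TEAD (0.265, exact p = 0.114) and C/EBP (0.0175, exact p = 0.229) the permutation test did not separate the groups.

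Among the peaks that fell, the largest change was in an intron of NLRC5, in a peak the table names after CPNE2 (chr16:57045735-57046235). It had 5.56, 4.07, 5.25 and 5.14 per Mb in unstimulated and 0.860, 1.79, 1.20 and 0.195 in IFNG libraries, 20.2% of the former level (-1.98 ± 0.28, adjusted p = 1.66e-08). The groups were well apart, although the start of NLRC5 itself rose. An intronic peak of USP40, a deubiquitinase, went from 8.20, 9.75, 6.86 and 9.83 to 2.85, 2.71, 1.72 and 2.50 (-1.64 ± 0.23, adjusted p = 7.20e-09). A distal peak near LINC00457 went from 4.79, 3.09, 4.49 and 4.14 to 1.15, 1.10, 0.542 and 0.818 (-1.73 ± 0.30). A distal peak near ZNF385B had 0.678, 1.15, 1.62 and 1.37 without and 0 in all 4 libraries with IFNG, at least 2.49-fold lower. A distal peak near MCHR1 was at least 3.32-fold lower. Peaks named after STK33, MFAP4 and NCOA3 fell by 1.65, 1.64 and 1.63 on the log2 scale. Without IFNG replicate 4, the NCOA3 call was lost, with adjusted p = 0.111. None of these 8 peaks held an ISRE, and the one in NLRC5 held a GAS.

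Against IFNA, the other interferon of the series, 3573 peaks were higher with IFNG (0.878% of those tested) and 1210 lower (0.297%). Both comparisons with a cytokine use the same 4 IFNG libraries. The class II genes marked the difference, with 9 of 14 start-site peaks higher with IFNG and 0 lower, a median of 1.46 on the log2 scale. CD74 was at 1.22 ± 0.350 per Mb with IFNA (SD, n = 4) against a mean of 16.5 with IFNG, a log2 difference of 3.30 (adjusted p = 4.06e-12). HLA-DRA was at 0.974 ± 0.335 with IFNA against 11.9 with IFNG, a log2 difference of 3.09 (adjusted p = 1.24e-12). GBP2, GBP4 and GBP5, the antigen processing genes NLRC5, TAP1, PSMB8 and PSMB9, IDO1 and WARS1, APOL1, APOL3 and APOL4, and AIM2 were also higher with IFNG. At IDO1 the IFNA libraries held 1.39 ± 0.469 per Mb, and IFNG was higher by 2.67 on the log2 scale (adjusted p = 1.33e-08). The largest differences were at the FAR2 peak (3.38), CD74, a GBP5 peak from 89286764 (3.17) and a peak named after CXCL17 (3.12).

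The antiviral genes did not follow. Of 34 start-site peaks 0 were higher with IFNG than with IFNA and 1, MX1, was lower, with a median log2 difference of -0.16. MX1 reached 21.7 per Mb with IFNA against a mean of 8.82 with IFNG, a log2 difference of -1.25 (adjusted p = 0.000156). OAS2 had 36.3 with IFNA (difference -0.22, adjusted p = 0.888) and BST2 22.1 (difference -0.27, adjusted p = 0.89), and these p-values do not show that the levels were alike. A pair of peaks named after IFI6, which lie in LINC02574, was higher with IFNA than with IFNG. The pair was not called between IFNG and unstimulated cells. The first (chromosome 1, from 27664189) held 0.719, 0.673, 1.72 and 0.551 per Mb unstimulated and 1.21, 1.35, 1.08 and 0.706 with IFNG. With IFNA it held 12.1 ± 0.603, and the log2 difference of IFNG to IFNA was -3.0 (adjusted p = 9.44e-10). Another distal peak named after IFI6, from 27689639, was chosen after its values were seen. It rose with IFNG from a mean of 6.56 unstimulated to 29.3 per Mb (2.09 ± 0.19, adjusted p = 3.09e-19). HERC6, an intronic peak, stood at 4.81 ± 0.563 per Mb with IFNA and at a mean of 0.49 with IFNG, a log2 difference of -2.55. ACTA2, TAGLN and CNN1 were lower with IFNG than with IFNA, ACTA2 with a difference of -0.70 (adjusted p = 0.000758).

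The distance to TNF was wider, with 13196 peaks higher with IFNG (3.24%) and 12660 lower (3.11%). Class II (9 of 14), guanylate-binding (5 of 7), apolipoprotein L (5 of 5) and antiviral start-site peaks (27 of 34) were higher with IFNG, with 0 lower in each list. In the inflammatory fibroblast list 0 of 17 were higher and 6 lower, namely CXCL1, CXCL3, CXCL5, CXCL6, CXCL8 and MMP3. CCL2, C3 and ICAM1 were lower with IFNG too. The largest differences were the IRF1 peak (4.21, adjusted p = 1.83e-31) on one side and an exonic peak of FBLN1 (-4.28), 2 exonic peaks of CXCL8 (-4.28 and -4.23) and an intronic peak of ADA (-4.24) on the other. The CXCL8 peak from 73742531 held 0.339, 0.600, 0 and 0.972 per Mb with IFNG and 17.3 with TNF.

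By string, the comparisons with IFNA and TNF also differed. Of peaks with 2 or more ISREs 7.70% were higher with IFNG than with IFNA and 0.113% lower, against 0.538% and 0.329% of peaks with neither ISRE nor GAS. Against TNF, 18.2% of those with 2 or more ISREs were higher and 1.25% lower, and of peaks with AP-1 and no ISRE 2.32% were higher and 7.26% lower.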

How the data were processed

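Per the labels and the study's methods, the authors made Omni-ATAC libraries, aligned the reads to hg38 and called peaks with MACS2 in the ENCODE ATAC-seq pipeline. Each deposited value is a signal, the unscaled sum over 500 bases of how many reads cover each base. How the peaks of this table were selected is not given in the sources used here. The most frequent value above 0 was 75, a read length, so the sums are not read counts. The study's own count model was therefore not used.

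Each library was divided by its total coverage (in Mb) and a composition factor (trimmed mean of log ratios, 30% of ratios and 5% of means trimmed from each end). The log2 of coverage per Mb + 0.5 was fitted per peak with limma 3.58.1 in R 4.3.3 (mean-variance trend) over all 44 libraries of 11 groups, with the group as the only term. Peaks with a log2 mean coverage above -3 were tested, and a peak was called at a Benjamini-Hochberg adjusted p under 0.05. The script was tested on simulated data. Means, folds and SDs are on the linear scale of coverage per Mb. A peak at or under 3 reads of 75 bases in every library of a group was taken as at the floor, which sets the bound of a fold and covers counting error only. Strings were searched in hg38, and coverage shares were compared with an exact permutation test (scipy 1.17.1, Python 3.11.15) over 70 arrangements.

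A start-site peak is the tested peak whose centre is nearest to the canonical GENCODE v44 start of the gene, within 1 kb. The text names the 12 most raised, 8 most lowered and 10 most raised promoter-class peaks among called peaks with no overlap of the groups and at least 1 per Mb in the higher group, leading genes and the largest changes of each list, the 10 names and 5 windows with most raised peaks, and the 4 most extreme peaks each way against IFNA and TNF. Promoter-class peaks named after LOC100506321, GJD3, PSMB8 and SLC23A1 were also picked, with log2 changes of 3.74, 2.79, 2.66 and 2.61. So was a peak named after ARHGEF19, with a log2 difference of IFNG to IFNA of -2.61. Further list members, and the most raised peak under a listed name, were added after their values were seen. The members, lists and strings were chosen with earlier results of these data known. Alternatives changed the scaling, pseudocount, filter, weights, spread estimate, libraries fitted, GC correction and replicate block. Some listed genes are not reported here.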

Additional observations from a re-analysis of the deposited data

Results flagged for a closer look

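Among 122 groups of 4 values of the named peaks, 2 held a library far from the other 3, where chance flags about 1 in 20 groups. At the MCHR1 peak on chromosome 22, IFNG replicate 1 had 0.472 per Mb and the other IFNG libraries 0 to 0.0481, all near or under the coverage of 3 reads. At the ISG15 start-site peak, IFNG replicate 3 had 29.4 per Mb and the others 33.3 to 34.0, all above the unstimulated libraries.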

How the results depend on the processing

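None of the alternatives reversed a result. The 6025 raised peaks became 4188 with no mean-variance trend, 4314 with a pseudocount of 0.1 (71.1% of the main calls shared), 7473 with array quality weights and 8212 with only the compared groups in the fit, and 4642 to 5083 without a single replicate. The 1119 lowered peaks became 1753 with array quality weights and 407 with no trend, 1452 without IL6 replicate 4, a library of another group, and 679 to 913 without a replicate, the fewest without unstimulated replicate 3 (679) and IFNG replicates 3 and 4 (731 each). Peaks higher than with IFNA numbered 1994 with a pseudocount of 0.1, 1981 with no trend, 4198 without IL6 replicate 4 and 2332 to 2923 without a replicate (2333 without IFNG replicate 2, 2332 without IFNG replicate 3). Those lower numbered 2116 with weights, 329 with no trend, 1580 without IL6 replicate 4 and 710 to 1084 without a replicate (716 without IFNG replicate 3, 738 and 710 without IFNA replicates 1 and 4). Against TNF, without a replicate, the higher peaks numbered 10755 to 11650 and the lower ones 10243 to 10995. Over the other alternatives the higher peaks ran from 10437 (no trend) to 16723 (weights). The lower ones ran from 9750 (no trend) to 16408 (only the compared groups). The cause of these moves was not tested. Replicate numbers do not pair the libraries: deviations of same-numbered libraries correlated at -0.0036 to 0.0075, and with the replicate block 6131 peaks rose and 1166 fell. Of 117 called named peaks 89 were called under every alternative. Without a replicate, the difference ran from 1.66 to 1.69 for the share of coverage in peaks with ISRE, 0.363 to 0.402 for the share of coverage in peaks with GAS, -0.261 to -0.103 for the share of coverage in peaks with AP-1, -0.336 to -0.226 for the share of coverage in peaks with NF-kB, 0.150 to 0.330 for the share of coverage in peaks with TEAD and 0.00948 to 0.0254 for the share of coverage in peaks with C/EBP. Without unstimulated replicate 4 the adjusted p of the exact permutation test became 0.0429 for ISRE, GAS, NF-kB and C/EBP. C/EBP had then joined the others at the smallest p possible, and the adjusted value depends on how many strings share it. Depth limits falls at weak peaks.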
